A study of Mus musculus with 2 samples.

Results

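Microglia and macrophages, the immune phagocytes of the retina, were picked out of dissociated retinas of mice aged 7 days (postnatal day 7, P7) by 8 transcripts. A cell barcode was kept with at least 1000 unique molecular identifiers (UMIs, 1 per captured RNA molecule), at least 500 genes and at most 15% mitochondrial UMIs. A kept barcode was a member when at least 3 of C1qa, C1qb, C1qc, Csf1r, Cx3cr1, P2ry12, Tmem119 and Mrc1 were detected. The rule took 106 of 13480 kept barcodes in the Mettl14-cKO library (0.786%, exact Clopper-Pearson 95% interval 0.644 to 0.950%). It took 44 of 11361 in the control library (0.387%, 0.282 to 0.520%), which makes 150 of 24841 in all. The share of members was thus 2.03 times as high in the Mettl14-cKO library, with intervals that did not overlap.

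Mettl14-cKO retinas were Mettl14 fl/fl and carried Chx10-Egfp/Cre, a transgene that expresses a fusion of EGFP and Cre recombinase under the Chx10 promoter. Control retinas were Mettl14 fl/fl or fl/wt, and their label names no Cre transgene. Both groups were collected at P7, and by these genotypes each animal carried at least 1 floxed Mettl14 allele. Mettl14 belongs to the enzyme complex that methylates adenosines in messenger RNA (the m6A mark). Chx10 is active in retinal progenitors, and microglia come from the yolk sac, so the members lie outside the lineage in which the driver is known to act. Each genotype is 1 library made with the 10x Genomics 3' kit v3.1, and the number of pooled animals or retinas is not given in the labels. No test between genotypes was therefore made. Every interval below covers counting error only and leaves out differences between animals and between cell preparations.

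Microglia settle in the retina before birth, live on signals through the receptor Csf1r, and survey the tissue through receptors such as Cx3cr1 and P2ry12. In the postnatal retina they clear dying neurons and are known to remove synapses with the help of complement, whose first component C1q is assembled from the products of C1qa, C1qb and C1qc. When they engulf much material they are known to lower homeostatic genes such as P2ry12 and Tmem119, and to raise genes of lipid handling and matrix such as Apoe, Lpl, Apoc1 and Spp1.

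The promoters of 4 genes on which the values below turn are printed for reference, from 250 bases before to 50 bases after the start site, as RefSeq gives them on GRCm38.p6. C1qb (chr4:136886151-136886450, minus strand) and C1qc (chr4:136892865-136893164, minus strand) are neighbours that carried the rule. Spp1 (chr5:104434861-104435160, plus strand, the first of 2 entries) and P2ry12 (chr3:59262936-59263235, minus strand) were both lower in Mettl14-cKO members. Capitals mark GAGGAA or its reverse complement, the core that the myeloid factor PU.1 (gene Spi1) is known to bind, searched on both strands.
C1qb: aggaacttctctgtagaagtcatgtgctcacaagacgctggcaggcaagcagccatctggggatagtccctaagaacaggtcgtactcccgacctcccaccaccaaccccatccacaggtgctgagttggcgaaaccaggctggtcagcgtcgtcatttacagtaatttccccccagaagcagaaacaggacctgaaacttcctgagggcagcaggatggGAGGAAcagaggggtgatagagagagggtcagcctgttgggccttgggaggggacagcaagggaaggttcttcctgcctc
C1qc: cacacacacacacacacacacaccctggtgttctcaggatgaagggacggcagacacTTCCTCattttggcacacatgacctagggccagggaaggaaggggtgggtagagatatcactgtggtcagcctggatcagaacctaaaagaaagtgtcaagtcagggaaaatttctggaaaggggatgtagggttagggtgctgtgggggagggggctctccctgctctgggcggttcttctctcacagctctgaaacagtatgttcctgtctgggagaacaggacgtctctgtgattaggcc
Spp1: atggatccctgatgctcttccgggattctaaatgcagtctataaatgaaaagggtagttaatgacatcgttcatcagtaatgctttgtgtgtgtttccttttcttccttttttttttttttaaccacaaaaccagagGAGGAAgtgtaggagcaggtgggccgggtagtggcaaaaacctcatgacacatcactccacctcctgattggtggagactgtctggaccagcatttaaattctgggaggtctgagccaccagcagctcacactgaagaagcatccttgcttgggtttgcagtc
P2ry12: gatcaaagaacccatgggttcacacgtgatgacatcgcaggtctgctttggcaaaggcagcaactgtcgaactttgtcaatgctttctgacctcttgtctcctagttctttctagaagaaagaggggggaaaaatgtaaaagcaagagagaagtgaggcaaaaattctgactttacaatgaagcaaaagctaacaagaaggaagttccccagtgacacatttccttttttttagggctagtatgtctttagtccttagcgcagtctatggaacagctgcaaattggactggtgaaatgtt
C1qb, C1qc and Spp1 each held 1 match, and P2ry12 held none in this window. The letters occur in 28.3% of the 32851 promoters of the table. They occur in 13 of the 25 promoters found for the identity genes described below (52%). A match describes the letters and is not a binding site.

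Members held 713528 UMIs in the Mettl14-cKO library and 256935 in control. The median member had 6100 UMIs (range 1033 to 18144) in the Mettl14-cKO library and 5284 (1032 to 20665) in control, with 2079 and 2081 genes detected and 2.64% and 3.44% mitochondrial UMIs. The whole libraries held 59856468 UMIs in 15319 Mettl14-cKO barcodes and 55921787 UMIs in 13287 control barcodes. Between the libraries 39 kept barcodes shared their sequence, and 0 of them were members. Scrublet marked 1 Mettl14-cKO and 0 control members as doublets, against 4.27% and 6.90% of the other barcodes, and marked barcodes were kept.

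The label was checked with 33 identity genes that the rule did not use. Of these, 32 reached 30 UMIs in members, and all 32 stood at least 4-fold above the other barcodes in both libraries. Because the rule picked the cells by related genes, this describes the members and is no test. Against the same background, 557 of 4019 genes (13.9%) met the 4-fold criterion in the Mettl14-cKO library and 538 (13.4%) in control, and 501 (12.5%) did so in both. The genes furthest above the rest were Gpr34, a lysophosphatidylserine receptor, Ctss, a lysosomal protease, Fcrls, Cd33, Ly86 and Fcgr3, an IgG receptor. Ctss stood at 4437 CPM (UMIs of a gene scaled to 1000000 UMIs of the set) in Mettl14-cKO members and 0.987 CPM in the other Mettl14-cKO barcodes, and at 4141 and 0.536 CPM in control. Tyrobp, the adaptor of Trem2, was detected in 98.1% of Mettl14-cKO and 93.2% of control members.

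Markers of macrophages at tissue borders were nearly absent, so the data show microglia and give little sign of the second cell type in the label. Mrc1, a mannose receptor of border macrophages and the only rule gene that points to them, held 0 UMIs in Mettl14-cKO members and 1 UMI in control members. Pf4, Cd163, Cbr2 and Cd209f held 0 UMIs in both libraries. Lyve1 held 0 and 1 UMIs, and Ms4a7 held 2 in each. Of the 14 border genes, Lyz2 and Stab1 reached 30 UMIs, and both are also made by microglia. At least 2 of 10 border genes were found in 6 Mettl14-cKO and 4 control members. The monocyte genes Ly6c2, Chil3 and Plac8 were at 0 in both libraries, and Ccr2 held 1 and 0 UMIs. Of the 10 monocyte genes 5 were at 0, and together the 10 held 51 and 8 UMIs (71.5 and 31.1 CPM). The 1 monocyte gene that reached 30 UMIs had a log2 ratio, Mettl14-cKO over control, of 1.40. It did not meet the 4-fold criterion over the other barcodes in both libraries. Neutrophil genes summed to 1.40 CPM in Mettl14-cKO members and 0 in control, and lymphocyte genes to 2.80 and 0 CPM. Genes of dendritic and mast cells summed to 2.80 and 7.78 CPM.

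The members were not all alike. The 33 identity genes made up a median of 3.52% of a cell's UMIs in the Mettl14-cKO library and 3.46% in control, but the share was under 1% in 18 Mettl14-cKO and 9 control members. Without them the members were 0.653% of kept Mettl14-cKO barcodes (0.524 to 0.804%) and 0.308% of kept control barcodes (0.215 to 0.428%). The low-identity cells had a median share of 0.375% and 0.140%. Of them 14 and 9 also passed a gate of retinal neurons or other classes (at least 3 of its marker genes detected), against 17 of the other 88 and 8 of the other 35. Rod transcripts made up 0.918% of the UMIs of the 18 Mettl14-cKO cells and 2.18% of those of the 9 control cells, against 1.43% and 2.23% in the other barcodes. In the remaining 88 and 35 members they made up 0.0927% and 0.148%. Cells with few identity transcripts held 83850 of the Mettl14-cKO members' UMIs and 59249 of the control members'. Comparisons below are therefore given over all members and over the 88 and 35 cells with an identity share of at least 1%, a division chosen after seeing the data.

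**Figure D1:**
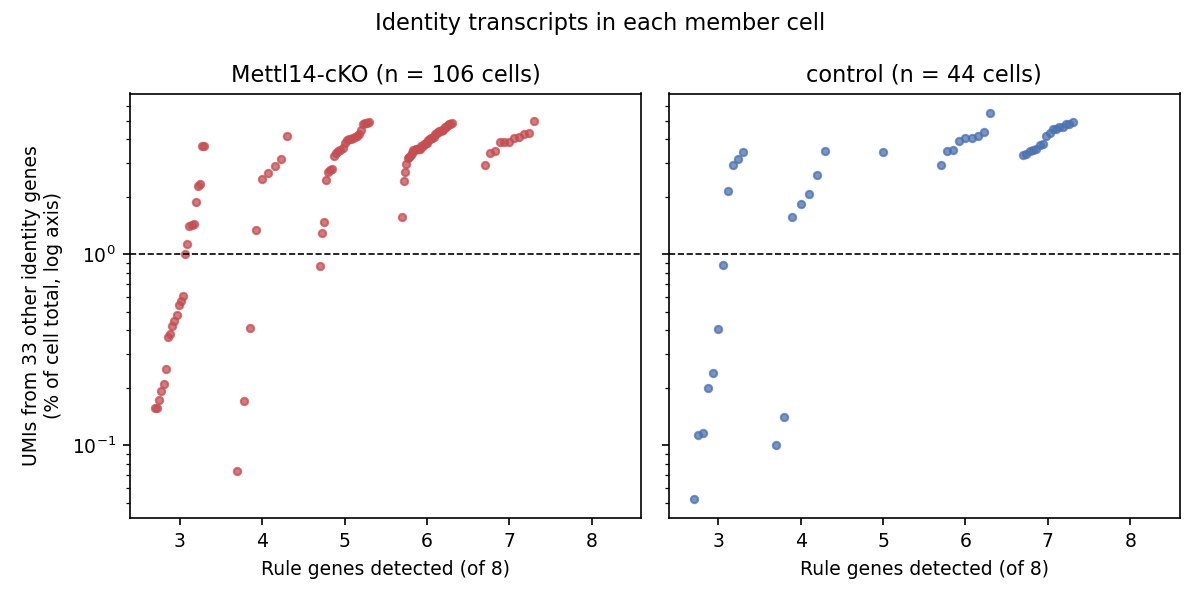
Share of each member's UMIs that came from 33 identity genes outside the rule (percent of the cell total, log axis) against the number of rule genes detected, for Mettl14-cKO cells (left) and control cells (right). Each point is 1 cell and the dashed line marks 1%; below it lie 18 Mettl14-cKO and 9 control cells, all but 1 of them with 3 or 4 rule genes.

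The threshold of 3 rule genes ran through these mixed cells. Members with exactly 3 rule genes numbered 24 in the Mettl14-cKO library and 11 in control, with a median identity share of 0.558% and 0.408%. Barcodes just outside, with 2 rule genes, numbered 17 and 11, with a median share of 0.158% and 0.197%. Exactly 5 rule genes were found in 25 Mettl14-cKO members and 1 control member, exactly 6 in 37 and 9, and exactly 7 in 11 and 16. No member had all 8. All 3 C1q genes were found in 102 of 106 Mettl14-cKO and 43 of 44 control members. Membership hardly rested on P2ry12 and Tmem119, since 104 and 43 members would have passed on the other rule genes alone.

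Complement genes carried the rule and were close in level between the libraries. C1qb stood at 7484 CPM in Mettl14-cKO members and 5986 CPM in control members, C1qa at 6308 and 5671 CPM, and C1qc at 5376 and 4242 CPM. Together they made up a median of 1.91% of a cell's UMIs in Mettl14-cKO members (0.0513 to 3.61%) and 1.81% in control members (0.0375 to 3.09%). The largest of the 3 log2 ratios, Mettl14-cKO over control, was 0.34 for C1qc, and over cells with an identity share of at least 1% (the narrower set) the ratios lay between -0.05 for C1qa and 0.15 for C1qc. The receptor genes Cx3cr1 (1218 and 1273 CPM) and Csf1r (893 and 876 CPM) were likewise near 1 to 1. None of the 8 complement genes tested met the criterion for a difference, given below, which 1.76% of all genes met as higher and 3.45% as lower. Their median log2 ratio was 0.18 (-0.03 over the narrower set).

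A gene is reported as higher or lower when its level differed at least 1.5-fold between the libraries, with exact 95% Poisson intervals that did not overlap, and it held at least 30 UMIs in members over both libraries. Over all members 71 of 4026 genes were higher in the Mettl14-cKO library (1.76%) and 139 were lower (3.45%). At these shares a short gene list would hold few called genes or none, so a list count of 0 is near the share over all genes. Over cells with an identity share of at least 1%, 42 of 3168 were higher (1.33%) and 50 were lower (1.58%). The sets shared 31 higher and 30 lower genes. The median log2 ratio of all genes tested was -0.05 over all members and 0.00 over the narrower set.

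P2ry12 and Tmem119, markers of homeostatic microglia, were lower in Mettl14-cKO members in both sets. P2ry12, the ADP receptor that steers microglial processes, held 162 UMIs (227 CPM, 193 to 265) in Mettl14-cKO members and 122 UMIs (475 CPM, 394 to 567) in control members. Its log2 ratio was -1.06 over all members and -1.24 over the narrower set. It was detected in 48.1% of Mettl14-cKO and 63.6% of control members. With each cell thinned to 1500 UMIs, it was detected in 18 of 95 Mettl14-cKO cells (18.9%, 11.6 to 28.3%) and 18 of 36 control cells (50.0%, 32.9 to 67.1%), with 11 and 8 shallower cells left out. No UMI of it was found in 1067 Mettl14-cKO and 696 control thinned barcodes of an amacrine marker gate, a class that lacks the gene, where the exact 95% intervals for a share with a UMI reach 0.345% and 0.529%. Amacrine barcodes had a median of 3670 and 4258 UMIs before thinning.

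Tmem119, a membrane protein of resident microglia, held 16 UMIs (22.4 CPM) in Mettl14-cKO members and 22 UMIs (85.6 CPM) in control members, a log2 ratio of -1.93. It was found in 12 of 106 and 16 of 44 members. Siglech, a microglial sialic acid receptor, stood at 84.1 and 140 CPM, which did not meet the criterion over all members (log2 -0.74) and met it over the narrower set (-0.93). Over all members 2 of the 13 homeostatic genes tested were lower and 0 were higher, with a median log2 ratio of -0.18 against -0.05 for all genes. Over the narrower set 3 were lower and the median was -0.38. P2ry12, Tmem119, Cx3cr1 and Csf1r are in this list and are also rule genes, so a cell that has them was more likely to be taken. The counts and medians of the list include them, and both genes that met the criterion over all members are rule genes. These list values therefore describe the members and are no independent support. None of the other homeostatic genes met the criterion over all members. Fcrls stood at 1142 and 1031 CPM (log2 0.15) and Sall1, a transcription factor of microglial identity, at 77.1 and 97.3 CPM (-0.34).

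**Figure D2:**
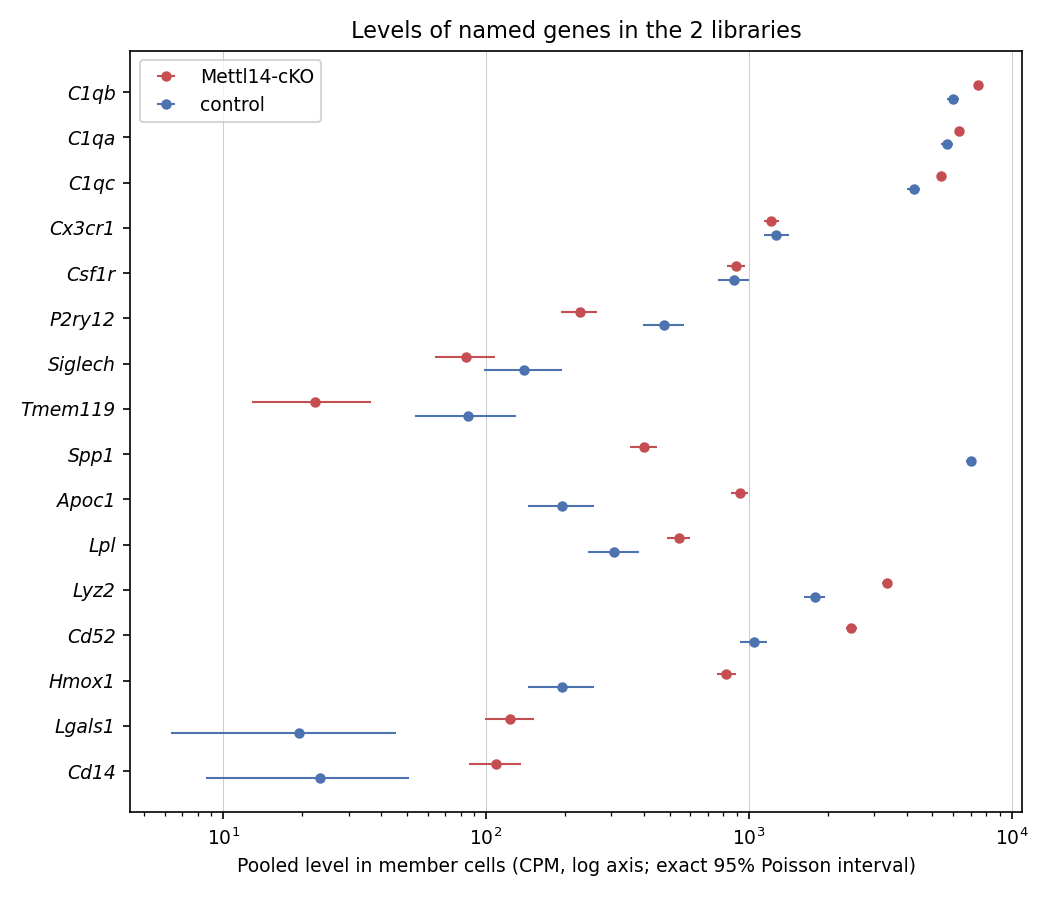
Pooled levels of 16 genes in Mettl14-cKO (upper point of each pair) and control members (lower point), in CPM on a log axis with exact 95% Poisson intervals. C1q, Cx3cr1 and Csf1r nearly coincide; P2ry12, Tmem119 and Spp1 are lower in Mettl14-cKO members, and Apoc1, Lpl, Lyz2, Cd52, Hmox1, Lgals1 and Cd14 are higher.

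Among genes of lipid handling and of the activated state, Apoc1 and Lpl were higher in Mettl14-cKO members and Spp1 was far lower. Apoc1, an apolipoprotein, held 659 UMIs (924 CPM) in Mettl14-cKO members and 50 UMIs (195 CPM) in control members, a log2 ratio of 2.25. It was found in 69.8% and 38.6% of members, and after thinning in 46 of 95 Mettl14-cKO cells (48.4%, 38.0 to 58.9%) and 8 of 36 control cells (22.2%, 10.1 to 39.2%), against 0% and 0.431% of amacrine cells. Lpl, lipoprotein lipase, stood at 541 and 307 CPM (log2 0.82). Apoe, the most abundant transcript named here, made up 5.10% of Mettl14-cKO and 4.33% of control members' UMIs and did not meet the criterion (0.24). Of the 18 tested genes of the activated and phagocytic list, 2 were higher (Apoc1 and Lpl), 1 was lower (Spp1) and the median log2 ratio was 0.23. Over the narrower set the same genes met the criterion and the median was 0.08.

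Spp1, which encodes the secreted matrix protein osteopontin, had the lowest ratio. It held 285 UMIs (399 CPM, 354 to 449) in Mettl14-cKO members and 1799 UMIs (7002 CPM, 6682 to 7333) in control members, a log2 ratio of -4.13. It was found in a like share of cells, 32 of 106 Mettl14-cKO members (30.2%) and 12 of 44 control members (27.3%), against 0.349% and 0.702% of amacrine cells. The difference came from few cells: the 5 members with the most Spp1 held 197 UMIs in the Mettl14-cKO library and 1745 UMIs (97.0% of the total) in control, up to 474 in 1 control cell against 53 in 1 Mettl14-cKO cell. Without these 5 cells in each library, Spp1 stood at 131 CPM (105 to 162) in the other Mettl14-cKO members and 257 CPM (193 to 336) in the other control members, a log2 ratio of -0.97.

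The 5 control cells with at least 40 Spp1 UMIs differed from the other control members in more genes than Spp1. Gpnmb, a glycoprotein of phagocytic macrophages, held 11 UMIs in the 5 cells, at least 1 in each, and 0 in the other 30 control cells with an identity share of at least 1%. Fabp5, a fatty acid carrier, stood at 3585 CPM in the 5 cells and 492 CPM in the other 30. Lgals3, a galectin of phagocytes, stood at 382 and 39.9 CPM, Itgax, an integrin subunit, at 318 and 53.1 CPM, and Igf1, a growth factor, at 721 and 166 CPM. P2ry12 stood at 148 CPM in the 5 cells and 751 CPM in the other 30, and Tmem119 at 21.2 and 139 CPM. The cells were picked by Spp1 after seeing the data, so these values describe them.

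In the Mettl14-cKO library 2 members reached 40 Spp1 UMIs. With such cells left out, 86 Mettl14-cKO and 30 control members with an identity share of at least 1% remained. Lpl stood at 606 CPM in the 86 Mettl14-cKO cells and 226 CPM in the 30 control cells, Fabp5 at 985 and 492 CPM, Itgax at 172 and 53.1 CPM, and Lgals3 at 151 and 39.9 CPM. Before these cells were left out, Fabp5 stood at 1026 and 1229 CPM over the narrower set, so its direction turned with them, since the 5 control cells held 169 of its control UMIs. The step left out 2 of 88 Mettl14-cKO cells and 5 of 35 control cells. Those 5 cells held 18 Lgals3 UMIs against 6 in the other 30 control cells, and 15 Itgax UMIs against 8. Leaving them out thus lowered the control levels of both genes and widened the gaps between the libraries. Lpl stood at 605 and 395 CPM over the narrower set before the step. Apoc1 stood at 1055 and 252 CPM in the remaining cells. P2ry12 stood at 261 and 751 CPM and Tmem119 at 24.4 and 139 CPM. This comparison was also chosen after seeing the data.

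**Figure D3:**
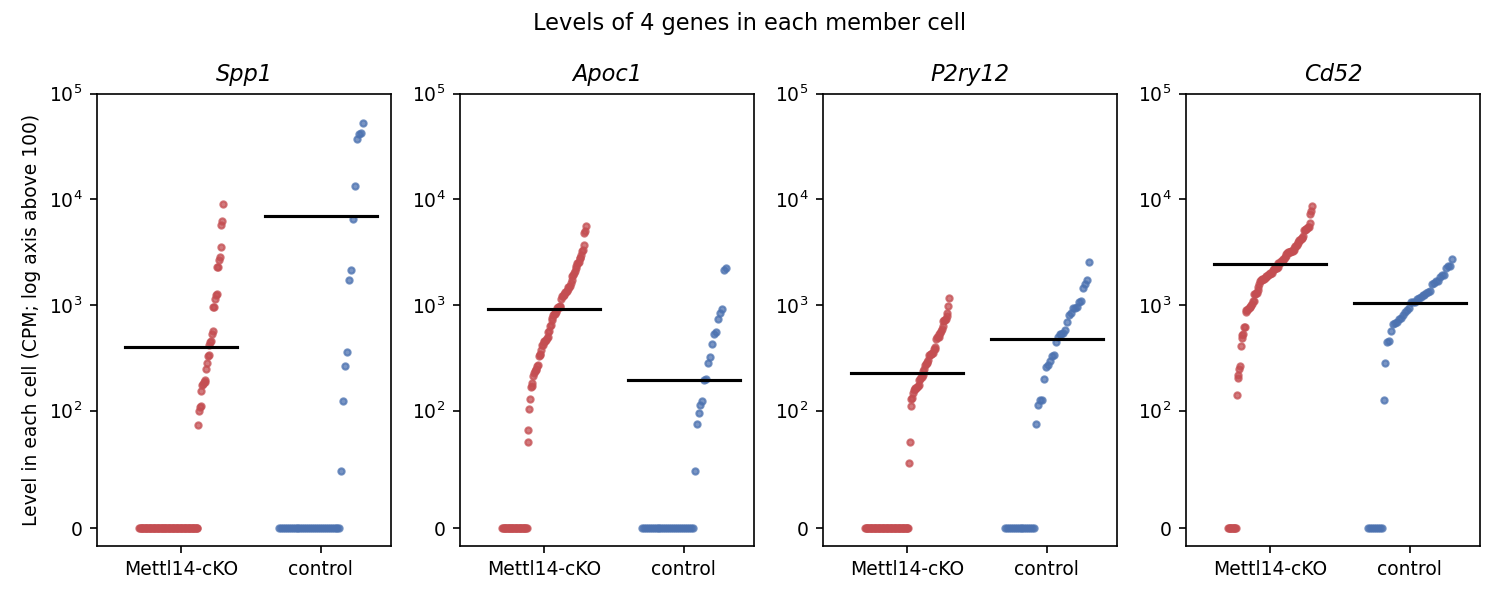
Level of Spp1, Apoc1, P2ry12 and Cd52 in each member (CPM, linear to 100 and log above), Mettl14-cKO cells left and control cells right, with cells ordered by level; black bars are the pooled levels. A few control cells carry nearly all Spp1, whereas Apoc1, P2ry12 and Cd52 differ across many cells.

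Among other genes of the myeloid surface, Cd14, a co-receptor for bacterial lipopolysaccharide, held 78 UMIs (109 CPM) in Mettl14-cKO and 6 UMIs (23.4 CPM) in control members, a log2 ratio of 2.23. Cd52, a small glycoprotein of leukocytes, stood at 2457 and 1043 CPM (1.24) and was the 1 identity gene of 32 tested that was higher. Lyz2, lysozyme, stood at 3352 and 1786 CPM (0.91). Lgals1, a galectin, held 88 and 5 UMIs (123 and 19.5 CPM, log2 2.66). Each of these met the criterion in both sets of cells. Over the narrower set 4 identity genes were lower, among them Lgmn, a lysosomal endopeptidase, Siglech and Ltc4s, leukotriene C4 synthase.

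Hmox1, haem oxygenase, which degrades haem, held 586 UMIs (821 CPM) in Mettl14-cKO members and 50 UMIs (195 CPM) in control members, a log2 ratio of 2.08. One Mettl14-cKO cell held 287 of its UMIs, and 1 control cell held 25 (50% of the control total). The Mettl14-cKO cell with 287 UMIs and 2 more Mettl14-cKO members also held 37 to 40 UMIs of the haemoglobin gene Hba-a1. No other member of either library held 30 UMIs of Hba-a1. Those 3 cells held 344 of the Hmox1 UMIs. Without them Hmox1 stood at 351 CPM in Mettl14-cKO members against 195 CPM in control members, a log2 ratio of 0.85. Without the 3 cells with the most Hmox1 in each library it stood at 216 and 74.1 CPM, a log2 ratio of 1.55. All 4 haemoglobin genes tested were higher in Mettl14-cKO members, Hbb-bs with 113 and 3 UMIs. Haemoglobin RNA was also present in the other barcodes, where Hbb-bs stood at 246 and 294 CPM, and Alas2, an erythroid enzyme, held 1 and 0 UMIs in members. The part of free or engulfed red cell RNA in these values was not tested.

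The remaining genes with the highest ratios were found in fewer cells. Cxcl14, a chemokine, held 53 UMIs in 22 Mettl14-cKO members and 0 UMIs in control members, and the exact 95% interval of its ratio begins at 5.00-fold. Amacrine cells also express it, with a UMI in 20.2% of Mettl14-cKO and 23.5% of control cells of that gate, against 20.8% of Mettl14-cKO members. After thinning it was found in 3 of 95 Mettl14-cKO and 0 of 36 control members, and in 12.2% and 13.4% of amacrine cells. The part of free RNA was not tested. Klk8, a serine protease, held 56 and 5 UMIs, Cks1b, a cell cycle regulator, 43 and 3, Plaur, the urokinase receptor, 44 and 4, Tuba1c, a tubulin, 51 and 5, Hscb 47 and 5, and Scpep1 46 and 5. Over the narrower set Cxcl14, Klk8 and Cks1b still met the criterion and Plaur, Tuba1c, Hscb and Scpep1 no longer met the criterion. Pax6, a transcription factor of retinal progenitors and amacrine cells, had the highest measured ratio over all members (48 and 2 UMIs, log2 3.11), but 18 and 0 UMIs remained in the narrower set, too few to be tested.

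Several of the lowest ratios after Spp1 belonged to genes known from photoreceptors, neurons and Müller glia. Sag, rod arrestin, stood at 111 CPM in Mettl14-cKO members and 1012 CPM in control members (log2 -3.19). Gngt1, a subunit of rod transducin, stood at 128 and 775 CPM (-2.60). Crym, a marker of the Müller glia gate used here, stood at 29.4 and 335 CPM (-3.51). Snap25 and Syp, proteins of synaptic vesicle release, stood at 36.4 and 163 CPM and at 23.8 and 113 CPM. Single control cells held much of these totals, 68.6% for Crym and 54.8% for Snap25. The ratios were also taken without the member with the most UMIs of the gene in each library. Crym then had a log2 ratio of -2.24, Sag of -2.84, Gngt1 of -2.31 and Syp of -1.77, all still lower. Snap25 (-1.29) no longer met the criterion. Nxnl2, Lyar, Ndrg1, Chchd10 and Atp1b2 were also among the 12 lowest, with log2 ratios between -2.37 and -2.01. Of 14 rod transcripts tested, 13 were lower and the median log2 ratio was -1.65. In the other barcodes Sag had a log2 ratio of -1.12, Gngt1 of -1.42 and Crym of -1.33. Over the narrower set 3 of 11 rod transcripts were lower and the median was -0.63, and Snap25 stood at 17.5 and 15.2 CPM. The low-identity cells held these transcripts at the levels given above, and their origin was not tested.

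No lysosomal or engulfment gene met the criterion over all members, and lists this short would hold few called genes or none. Of 22 lysosome and phagosome genes tested, 0 were higher and 0 lower, against 1.76% and 3.45% of all genes tested. Their median log2 ratio was 0.13 (-0.02 over the narrower set), with a range from -0.47 for Lgmn to 0.48 for Hexa. Ctsd, cathepsin D, stood at 5945 CPM in Mettl14-cKO and 4865 CPM in control members, and Cd68, a macrophage lysosomal glycoprotein, at 771 and 666 CPM. Of 14 engulfment genes tested 0 met the criterion, with a median of 0.15 (-0.05 over the narrower set). Trem2, a lipid receptor, stood at 2488 and 1954 CPM (log2 0.35), the phosphatidylserine-bridging receptors Mertk at 84.1 and 66.2 CPM and Axl at 74.3 and 54.5 CPM, and P2ry6, a receptor for nucleotides from dying cells, at 157 and 206 CPM. In the narrower set Lgmn (log2 -0.66) and Havcr2, which encodes TIM-3 (-1.15), were lower. The criterion asks for a difference of at least 1.5-fold, and smaller ones were not assessed.

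**Figure D4:**
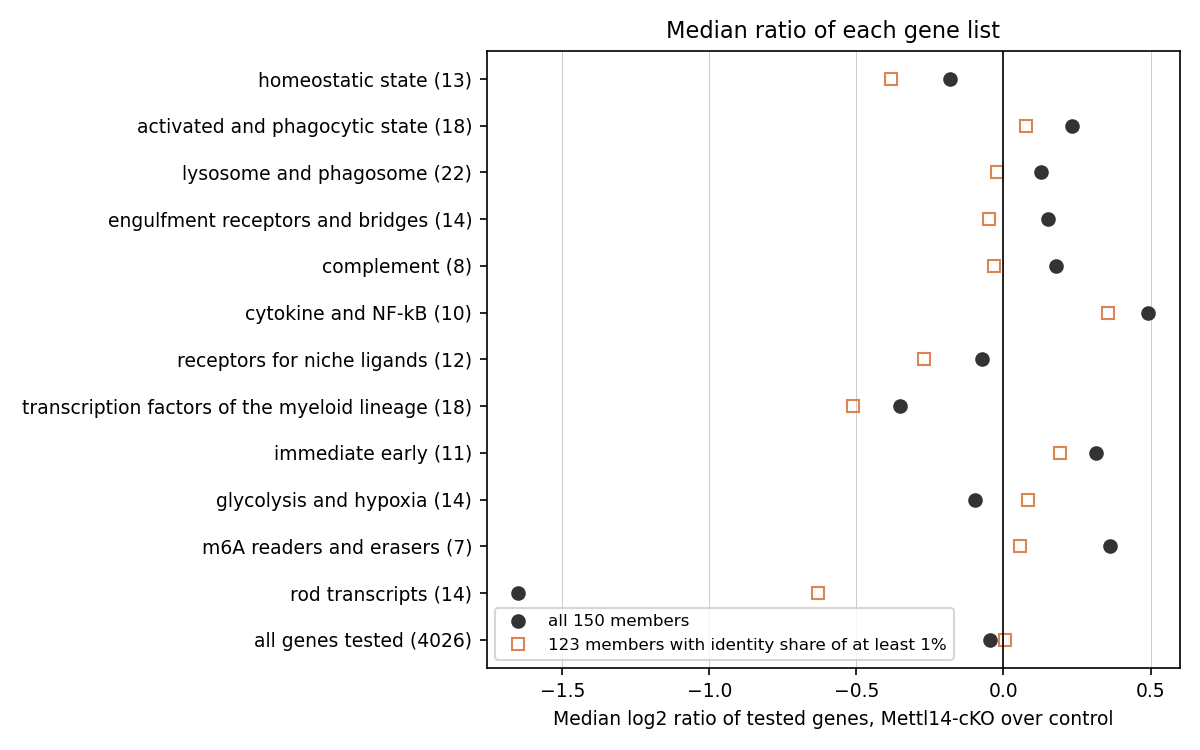
Median log2 ratio, Mettl14-cKO over control, of each gene list (tested genes in brackets, counted over all members), over all 150 members (filled circles) and over the 123 members with an identity share of at least 1% (open squares). Most lists lie within 0.5 of 0; the rod transcripts move from -1.65 to -0.63 between the sets.

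Of 10 cytokine genes tested 0 met the criterion, against 1.76% higher and 3.45% lower over all genes tested. Their median log2 ratio was 0.49. Ccl4 and Ccl3, chemokines, stood at 327 and 245 CPM in Mettl14-cKO members and 222 and 214 CPM in control members. Il1a held 37 and 9 UMIs, Tnf 4 and 6 UMIs, and Il6 was at 0 in both libraries. Only 3 of 22 interferon genes reached 30 UMIs, and Ifi27l2a was higher (256 and 89.5 CPM, log2 1.52). Ifit1 held 1 UMI in each library and Irf7 held 3 and 1. Of 6 antigen presentation genes tested, H2-K1, a class I heavy chain, was lower (290 and 448 CPM, log2 -0.63), whereas its partner B2m stood at 1421 and 1424 CPM. In the other barcodes H2-K1 stood at 2.34 and 4.62 CPM. H2-DMa, which loads class II molecules and was outside the list, was higher (262 and 128 CPM). The class II genes H2-Aa and Ciita were at 0.

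Transcription factors of the myeloid lineage had a median log2 ratio of -0.35 over 18 genes tested. Spi1, which encodes PU.1, stood at 391 CPM in Mettl14-cKO and 342 CPM in control members, Irf8 at 348 and 276 CPM and Mef2c at 498 and 424 CPM. Atf3, a stress-induced factor, was higher (158 and 85.6 CPM, log2 0.89), and Egr1, an immediate early factor, was lower (89.7 and 175 CPM, -0.97). Over the narrower set Atf3 did not meet the criterion (0.66), Egr1 did (-1.13) and the list's median was -0.51. Immediate early genes, which papain dissociation can raise, had 1 gene higher and 1 lower of 11 tested, the same Atf3 and Egr1, and a median of 0.31. Of 14 genes of glycolysis and hypoxia tested, Ndrg1 was lower and 0 were higher.

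RNA of the ligands that maintain microglia was found in different cells of the retina, sorted by marker gates (at least 3 marker genes of 1 class and of no other). Il34, a ligand of Csf1r, was at 0 UMIs in members of both libraries, and stood at 117 CPM in Mettl14-cKO and 74.8 CPM in control barcodes of the pericyte gate (26 and 13 cells). Csf1, the other ligand, stood at 51.9 and 31.1 CPM in members and 2.08 and 1.66 CPM in the rest of the retina. Cx3cl1, the ligand of Cx3cr1, was highest in the ganglion cell gate, at 32.7 CPM in Mettl14-cKO and 25.4 CPM in control cells. Tgfb1 stood at 126 and 136 CPM in members and 1.99 and 2.61 CPM in the pooled rest. In the Mettl14-cKO library it also stood at 253 CPM (171 to 362) in the endothelial gate (7 cells). In the Mettl14-cKO pericyte gate it stood at 87.8 CPM. Tgfb2 stood at 415 and 491 CPM in Müller glia and 441 and 475 CPM in bipolar cells. Mfge8, a bridge to phosphatidylserine, stood at 742 CPM in Mettl14-cKO and 1188 CPM in control Müller glia. Cd47 and Cd200 encode signals that restrain phagocytes. Cd47 stood at 408 CPM in Mettl14-cKO and 535 CPM in control ganglion cells. Cd200 stood at 180 CPM in Mettl14-cKO and 166 CPM in control amacrine cells. In the Mettl14-cKO endothelial gate (7 cells) Cd200 stood at 279 CPM (192 to 391). Of 12 receptors for these ligands tested in members, 0 met the criterion, against 1.76% higher and 3.45% lower over all genes tested. Their median log2 ratio was -0.07. Tgfbr1 stood at 314 and 358 CPM and Tgfbr2 at 107 and 113 CPM.

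Mettl14 itself was rarely counted in these cells. It held 7 UMIs (9.81 CPM) in Mettl14-cKO members and 3 UMIs (11.7 CPM) in control members, against 14.5 and 27.2 CPM in the other barcodes. At this depth no difference in members was detectable, and transcripts that lost the floxed exons may still be counted at their 3' end. Of 10 genes listed as m6A writers, 3 reached 30 UMIs and 0 met the criterion, and of 7 m6A readers and erasers tested 0 did. Of 10 genes listed as higher across the Mettl14-cKO retina, Lsm10 and Cdkn1a reached 30 UMIs in members and 0 met the criterion. Cdkn1a, an inhibitor of the cell cycle, stood at 35.0 CPM in Mettl14-cKO and 66.2 CPM in control members, against 119 and 27.2 CPM in the other barcodes. Zfp992, a zinc finger gene, stood at 19.6 and 19.5 CPM in members against 36.0 and 2.70 CPM elsewhere, on 14 and 5 UMIs. Lcmt2 held 6 and 1 UMIs and Rbm15 8 and 2, too few for a ratio.

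Markers of dividing cells were found in few members. At least 2 of the 5 genes Mki67, Top2a, Cdk1, Ube2c and Cenpf were found in 5 of 106 Mettl14-cKO members (4.72%, 1.55 to 10.7%) and 2 of 44 control members (4.55%, 0.555 to 15.5%). In the other barcodes they were found in 267 of 13374 Mettl14-cKO and 57 of 11317 control barcodes. After thinning, the counts in members were 4 of 95 and 0 of 36, and thinning removes such detections, so the 0 sets no limit on dividing cells. None of 24 G2 and M phase genes reached 30 UMIs, and together they stood at 308 CPM in Mettl14-cKO and 128 CPM in control members, against 262 and 132 CPM in the other barcodes. Of 3 S phase genes tested 0 met the criterion, and Pcna stood at 95.3 and 74.0 CPM. Transcripts of the Y-linked genes Kdm5d, Eif2s3y, Uty and Ddx3y were at 0 in members of both libraries, and Xist stood at 699 and 732 CPM.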

How the data were processed

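Per the labels, P7 retinas were dissociated with papain and made into 10x Genomics 3' libraries, 1 per genotype. Per the submitters' processing notes, the authors used Cell Ranger 6.1.1 and the mouse build mm10. Deposited values are raw UMI counts, 1 matrix per library. Barcodes were filtered, and members chosen, as the report states. The members and the 36 gene lists were chosen with earlier results of these data known. UMIs were summed over members per library and scaled to CPM. Levels carry exact Poisson 95% intervals, ratios exact conditional ones and shares Clopper-Pearson ones (scipy 1.17.1). With 1 library per genotype there is no test. Named were the rule genes, the 12 highest and 12 lowest ratios among genes found in at least 20% of the members of 1 library, the 20 genes furthest above the rest and the leading genes of each list; some of these are not reported here. Doublets were called with Scrublet (scanpy 1.11.5) at 0.8% per 1000 barcodes. The procedure was tested on simulated data. Gene positions come from GENCODE M21 and promoters from RefSeq. Alternatives varied the number of rule genes, depth, doublets, scaling, cell weighting, border genes, the UMI minimum and the fold.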

Additional observations from a re-analysis of the deposited data

Results flagged for a closer look

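Barcodes below the depth filters were outside every comparison above, and some of them carried the same transcripts. At least 3 of the 8 rule genes were detected in 41 of 1839 barcodes below the filters in the Mettl14-cKO library (2.23%, exact 95% interval 1.60 to 3.01%). They were detected in 13 of 1926 such barcodes in the control library (0.675%, 0.360 to 1.15%). All 41 and 13 had under 1000 UMIs, with a median of 738 and 731, and 0 were over the mitochondrial limit. The higher share in the Mettl14-cKO library is what drew attention to these barcodes. The difference was not tested, because each genotype has 1 library.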

How the results depend on the processing

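No paired analysis was possible because each genotype has 1 library, and leaving out a replicate was not possible for the same reason. With at least 4 rule genes the share of members in the Mettl14-cKO library was 0.608%. That setting left out the members with exactly 3 rule genes in both libraries, 24 of 106 in Mettl14-cKO and 11 of 44 in control. Over cells with an identity share of at least 1%, 42 genes were higher and 50 lower. With a minimum of 100 UMIs, 47 were higher and 56 lower, since fewer genes were tested, and with a 2-fold limit 40 were higher. The median log2 ratio of the rod transcripts was -1.31 with at least 4 rule genes, -1.23 with at least 2, -0.63 in the narrower set and -1.31 with cells weighted equally, which gives no intervals and so no counts. In the narrower set Snap25 (log2 0.20), Pde6g (0.46), Sncg (0.33) and Nefl (2.24) changed sign, as did Sncg (0.55) and Nefl (1.75) without the 1 cell that held most of each. The cause was not tested. The medians of the homeostatic, activated and lysosomal lists moved by at most 0.2 under each alternative run, though the lysosomal median fell below 0 in the narrower set (-0.02) and with cells weighted equally (-0.05). Gene ratios were followed for 58 genes, and a ratio moved when it left its main interval. Scaling by the median of ratios, leaving out doublets and leaving out mitochondrial and ribosomal genes moved none. The narrower set moved 23 and reversed 4. Weighting cells equally moved 15, at least 2 rule genes moved 8 and at least 4 moved 5. Leaving out members with 2 or more border genes moved 4. Leaving out the top cell of each gene moved 5 and reversed 2. Depth limits the control library most: its members hold 256935 UMIs, and genes under 30 UMIs were not compared.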
